A study of Drosophila melanogaster with 12 samples.

Results

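Tubulins are the building blocks of microtubules, and the RNA levels of 9 Drosophila melanogaster tubulin genes were followed through wing development. The genes were taken from the count tables by their symbols. They are alphaTub84B, alphaTub84D, alphaTub85E, alphaTub67C, betaTub56D, betaTub60D, betaTub85D, betaTub97EF and gammaTub23C, and they make 9 of the 15240 genes counted. Wings were dissected from animals staged at 25°C, and mRNA from 40 wings per stage was sequenced at 6 timepoints, with 2 independent replicates each and 12 libraries in all. The earliest wings came from wandering 3rd instar larvae and are called L3. Their sample titles read 0 h, whereas the series design places them at -10 h relative to puparium formation. The other wings came from pupae at 6, 18, 24, 36 and 44 h after puparium formation (APF). All 12 libraries carry the same strain label, w1118/y,w, hs-FLP; + ; +, and the labels name no treatment. The series addressed how gene expression in the wing changes across the ecdysone pulses of metamorphosis and the cell cycle arrests that accompany them. The authors describe L3 as proliferating, 6 h as arrested in G2, 18 h as the final cell cycle, 24 h as the exit from the cycle, and 36 and 44 h as differentiation.

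A microtubule is a hollow polymer of dimers, each made of an alpha-tubulin and a beta-tubulin. The gamma-tubulin ring complex starts new microtubules at centrosomes and at other sites. Animals carry several genes for each class, called isotypes, and some isotypes serve every cell while others belong to the germ line, muscle or sense organs. In dividing wing cells microtubules form the spindle, and in differentiating wing cells they form apical-basal arrays and enter the growing wing hairs.

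Of the 9 genes, 7 were tested and 2 were too low to test. The test was edgeR's quasi-likelihood test over 8469 genes whose log2 CPM exceeded 2 somewhere in the series. CPM are counts scaled to the reads on genes of a library with edgeR's TMM factors. The verbs rose and fell are used for a Benjamini-Hochberg adjusted p under 0.05. The 9 genes together accounted for 0.372 to 0.948% of a library's reads on genes, which numbered 1659208 to 6900002. The smallest library was 24 h replicate 2. The F test of any difference among the 6 timepoints was passed by 7 of the 7 tested tubulins, beside a share of 83.5% of all tested genes, so passing it was common. The tubulins lie on chromosome arms 3R (alphaTub84B FBgn0003884, alphaTub84D FBgn0003885, alphaTub85E FBgn0003886, betaTub85D FBgn0003889 and betaTub97EF FBgn0003890), 3L (alphaTub67C FBgn0087040), 2R (betaTub56D FBgn0284243 and betaTub60D FBgn0288686) and 2L (gammaTub23C FBgn0260639). None of the 9 overlaps another gene in the BDGP6 annotation. The defining genes of the wing were present, with 9 of 9 wing epithelium markers counted at every timepoint and a summed level of 1697 to 4413 CPM per library.

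The bulk of the tubulin RNA came from alphaTub84B and betaTub56D, and in CPM both had maxima at 6 h and late in the series with a trough at 24 h. alphaTub84B encodes the alpha-tubulin that most cells use. It stood at 3455 and 3405 CPM in the 2 L3 libraries, 5191 and 4607 CPM at 6 h, 2466 and 2365 CPM at 18 h, 2277 and 1629 CPM at 24 h, 5553 and 6173 CPM at 36 h, and 4315 and 4663 CPM at 44 h APF. The 36 h libraries were the highest and the 24 h libraries the lowest, and the highest timepoint mean was 3.00-fold above the lowest. alphaTub84B fell 2.03-fold from 6 to 18 h (log2 fold change -1.02 ± 0.24 SE, edgeR adjusted p = 0.00449). It rose 3.00-fold from 24 to 36 h (log2 fold change 1.59 ± 0.24, edgeR adjusted p = 0.000386). This call was lost when unassigned reads were counted in the library size (0.72, adjusted p = 0.0882) and with limma on the deposited RPKM values (0.77, adjusted p = 0.1004). The RPKM values are themselves scaled to library sizes with unassigned reads, so the limma setting shares that scaling here and below. The other 3 steps did not pass, with log2 fold changes of 0.51 from L3 to 6 h (-0.069 with library size alone), -0.31 from 18 to 24 h and -0.39 from 36 to 44 h. In the order of the timepoint means, 36 h, 6 h, 44 h, L3, 18 h and 24 h, no neighbouring pair passed the test.

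betaTub56D encodes the beta-tubulin that most cells use. Its levels were 3054 and 3004 CPM at L3, 4829 and 4092 CPM at 6 h, 2227 and 2186 CPM at 18 h, 1633 and 1318 CPM at 24 h, 2430 and 2601 CPM at 36 h, and 3302 and 3389 CPM at 44 h APF. The 6 h libraries were the highest and the 24 h libraries the lowest, a 3.02-fold span of the means. betaTub56D fell 2.02-fold from 6 to 18 h (log2 fold change -1.02 ± 0.22, edgeR adjusted p = 0.00299), almost the same change as that of alphaTub84B. From 24 to 36 h it rose 1.70-fold (log2 fold change 0.77 ± 0.22, edgeR adjusted p = 0.0178). This rise was 0.65 on the log2 scale without 24 h replicate 2 and 0.72 without 36 h replicate 2, and passed in neither fit. It was also lost with library size alone (0.38, adjusted p = 0.158) and over all genes with at least 1 count (adjusted p = 0.0543). The sign turned with unassigned reads in the library size (-0.083) and with limma (-0.059). The change from L3 to 6 h had a log2 fold change of 0.56 ± 0.22 and just missed the threshold (edgeR adjusted p = 0.0562), although each 6 h library was above each L3 library. It passed with DESeq2 (adjusted p = 0.00167) and was -0.025 with library size alone. The 44 h level against L3 did not pass for alphaTub84B (log2 fold change 0.39 ± 0.24, edgeR adjusted p = 0.169) or for betaTub56D (0.14 ± 0.22, edgeR adjusted p = 0.588). For both genes the call of a fall at 18 h depended on the scaling too. With library size alone the log2 fold changes were -0.52 for each of them (adjusted p = 0.0719 and 0.0581), while the median of all genes moved by 0.50. The 4 libraries of the step alone gave adjusted p-values of 0.0736 and 0.0732.

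**Figure D1:**
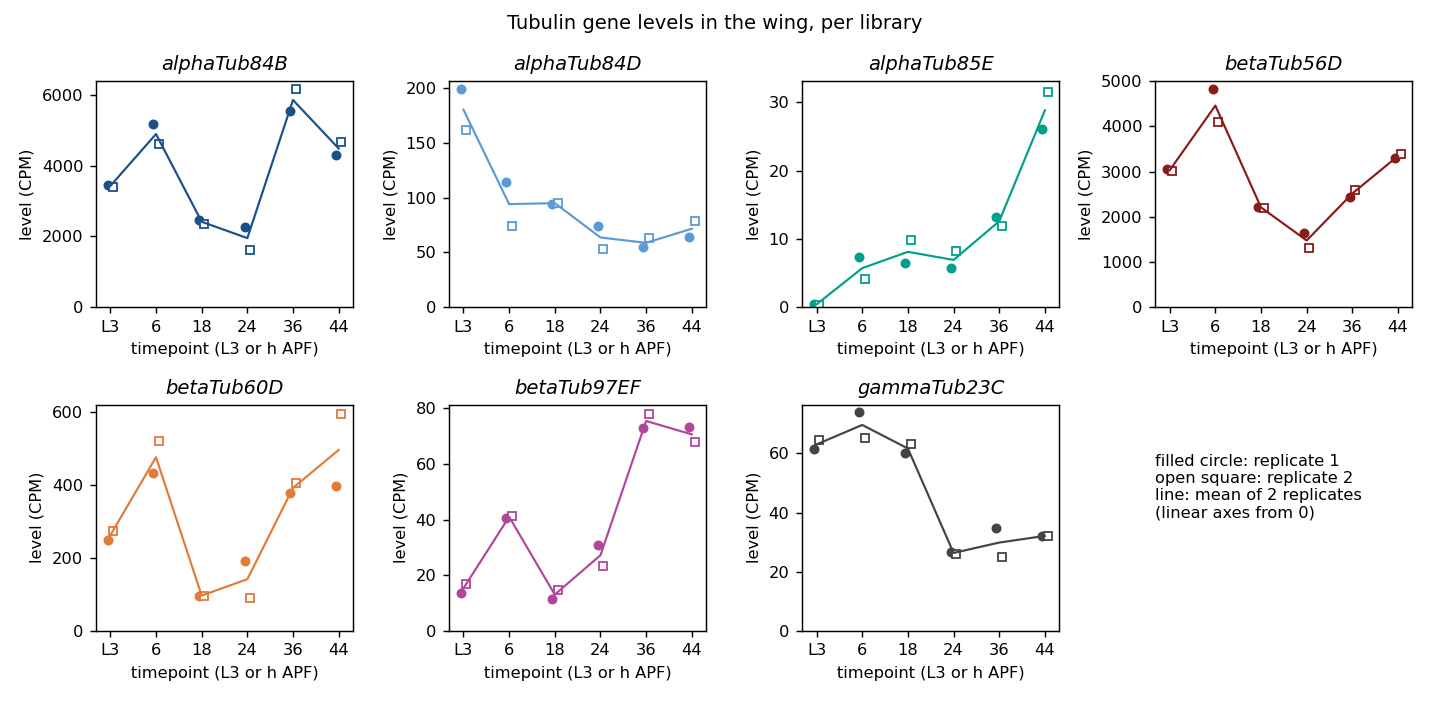
Level in CPM (y axis, linear, from 0) of the 7 tested tubulin genes at each timepoint (x axis, L3 or hours APF). Circles are replicate 1, squares replicate 2 and lines the mean of the 2. alphaTub84B and betaTub56D dip at 18 and 24 h, betaTub60D and betaTub97EF have maxima at 6 h and again from 36 h, alphaTub85E climbs to 26.1 and 31.6 CPM at 44 h, and gammaTub23C is at 34.7 CPM or below from 24 h.

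alphaTub84D and alphaTub85E, the minor alpha isotypes of these wings, changed in opposite directions. alphaTub84D encodes a protein nearly identical to that of alphaTub84B and is also widely expressed. It was highest in the larval wing, at 199 and 162 CPM at L3, and lower in every later library, at 114 and 74.1 CPM at 6 h, 94.6 and 95.4 CPM at 18 h, 74.2 and 53.0 CPM at 24 h, 54.7 and 62.7 CPM at 36 h, and 64.3 and 78.9 CPM at 44 h APF. It fell 1.91-fold from L3 to 6 h (log2 fold change -0.94 ± 0.25, edgeR adjusted p = 0.00872), and none of the 4 later steps passed. By 44 h it was 2.52-fold below L3 (log2 fold change -1.33 ± 0.25, edgeR adjusted p = 0.000597). The fall at 6 h did not pass without L3 replicate 1 (adjusted p = 0.0794) or with the 4 libraries of the step alone (0.0530), whereas the difference between 44 h and L3 passed in every leave-one-out fit (highest adjusted p = 0.0116). The coding sequences of alphaTub84B and alphaTub84D are alike, and reads that aligned to several places, 38.0 to 69.5% of the records of a library, were not counted, so the level of each may be understated and the ratio of the 2 is uncertain.

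alphaTub85E is known from testis, muscle and the support cells of sense organs. It was near the detection limit in the larval wing, with 4 and 1 counts at L3 (0.48 and 0.31 CPM), where a floor of 3 counts corresponds to 0.363 and 0.945 CPM. It then stood at 7.33 and 4.08 CPM at 6 h, 6.40 and 9.80 CPM at 18 h, 5.67 and 8.16 CPM at 24 h, 13.2 and 11.9 CPM at 36 h, and 26.1 and 31.6 CPM at 44 h APF. The 44 h libraries, with 110 and 156 counts, were above all others, and the 6, 18 and 24 h libraries overlapped. alphaTub85E rose from L3 to 6 h (edgeR adjusted p = 0.000145), and its 6 h level was 13.8-fold that of L3, with a 95% Poisson interval of 5.47 to 44.5 that covers counting error only. It rose 2.29-fold from 36 to 44 h (log2 fold change 1.196 ± 0.30, edgeR adjusted p = 0.0109). At 44 h the ratio to L3 was 66.4 (95% Poisson interval 28.1 to 206), from 266 against 5 counts. The step from 24 to 36 h was 1.92-fold (edgeR adjusted p = 0.0467) and lost its call in 7 of the 12 leave-one-out fits, without either library of L3, 36 h or 44 h, or without 24 h replicate 1 (adjusted p up to 0.324), with DESeq2 (0.0979) and with a replicate block (0.0502). It was also lost with library size alone (0.191), with unassigned reads (0.892) and with limma (0.924). The step from 36 to 44 h lost it without 36 h replicate 2 (0.0765) or 44 h replicate 2 (0.0932).

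betaTub60D and betaTub97EF, the minor beta isotypes, had 2 maxima, at 6 h and from 36 h onwards, and their lowest means at 18 h. betaTub60D encodes the beta-tubulin of differentiating muscle and some sense organs, and ecdysone induces it in cultured Drosophila cells. It was measured at 249 and 274 CPM at L3, 432 and 519 CPM at 6 h, 96.6 and 96.3 CPM at 18 h, 192 and 90.2 CPM at 24 h, 378 and 405 CPM at 36 h, and 397 and 594 CPM at 44 h APF. The 2 libraries at 24 h lay far apart, and 1 of them was below both 18 h libraries. betaTub60D fell 4.93-fold from 6 to 18 h (log2 fold change -2.30 ± 0.33, edgeR adjusted p = 0.000159), the largest fall of any tubulin between consecutive timepoints. It rose 2.74-fold from 24 to 36 h (log2 fold change 1.46 ± 0.32, edgeR adjusted p = 0.00415), and this call was kept in every leave-one-out fit but lost with unassigned reads (adjusted p = 0.266) and with limma (0.210). Its rise of 1.82-fold from L3 to 6 h was borderline (edgeR adjusted p = 0.0409) and was lost in 7 leave-one-out fits, without either library of L3, 18 h or 36 h or without 6 h replicate 2 (adjusted p up to 0.178). With library size alone that rise was 0.28 on the log2 scale (adjusted p = 0.470), and unassigned reads and limma gave adjusted p-values of 0.518 and 0.524. From 18 to 24 h the log2 fold change was 0.57 (edgeR adjusted p = 0.272). It was -0.10 without 24 h replicate 1, and 1.00 without 24 h replicate 2, when it passed (adjusted p = 0.0455). Compared with L3, betaTub60D was 2.71-fold lower at 18 h (edgeR adjusted p = 0.00687) and 1.89-fold higher at 44 h (edgeR adjusted p = 0.0224). The first was lost without 18 h replicate 1 (0.0617), and the second without L3 replicate 1 (0.114), L3 replicate 2 (0.0636) or 44 h replicate 2 (0.191). With library size alone the difference between 44 h and L3 was 0.053 on the log2 scale (adjusted p = 0.892).

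betaTub97EF is the beta isotype known from gut and blood cells, and its protein has been linked to growth at low temperature. Its counts per library ran from 46 to 336. Levels were 13.6 and 17.0 CPM at L3, 40.6 and 41.5 CPM at 6 h, 11.5 and 14.6 CPM at 18 h, 30.9 and 23.4 CPM at 24 h, 72.96 and 78.0 CPM at 36 h, and 73.3 and 68.0 CPM at 44 h APF. The L3 and 18 h libraries were the lowest and overlapped, and the 36 and 44 h libraries were the highest and also overlapped. betaTub97EF was called in 4 of the 5 consecutive steps, more than any other tubulin. It rose 2.72-fold from L3 to 6 h (log2 fold change 1.44 ± 0.21, edgeR adjusted p = 0.000215) and fell 3.19-fold from 6 to 18 h (log2 fold change -1.67 ± 0.22, edgeR adjusted p = 7.94e-05). It then rose 2.16-fold from 18 to 24 h (log2 fold change 1.11 ± 0.22, edgeR adjusted p = 0.00672) and 2.72-fold from 24 to 36 h (log2 fold change 1.44 ± 0.21, edgeR adjusted p = 0.000245). At 44 h it was 4.68-fold above L3 (edgeR adjusted p = 3.09e-06). The step from 18 to 24 h lost its call without 18 h replicate 1 (adjusted p = 0.0810) or without 24 h replicate 1 (0.102). None of the 4 calls was made with unassigned reads in the library size (adjusted p = 0.0638, 0.0622, 0.310 and 0.217 in the order of the steps) or with limma (0.0896, 0.0842, 0.377 and 0.179).

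Dissected wings hold several cell types, and in such bulk RNA fewer cells of a type and less RNA per cell cannot be told apart. The marker sums of muscle, neurons, tendon cells and fat body were higher at 36 and 44 h than at L3. The levels of alphaTub85E, betaTub60D and betaTub97EF were too. From 6 to 18 h the muscle sum went up and the tendon cell sum down, while betaTub60D and betaTub97EF fell. The summed level of 15 muscle genes was 187 to 216 CPM at L3, 437 to 483 CPM at 6 h, 526 to 645 CPM at 18 h, 639 to 732 CPM at 24 h, 1996 to 2118 CPM at 36 h and 1721 to 3822 CPM at 44 h, and Act88F, the flight muscle actin, was at 0 at L3 and 6 h. The 9 neuron genes in the files summed to 156 to 239 CPM at L3, 539 to 658 CPM at 36 h and 668 to 693 CPM at 44 h. The genes of sense organ support cells and chordotonal organs had their highest sums in the middle of the series, with 60.5 to 74.5 CPM at L3, 63.0 to 64.2 CPM at 6 h, 147 to 191 CPM at 18 h, 153 to 178 CPM at 24 h, 112 to 114.6 CPM at 36 h and 63.3 to 74.5 CPM at 44 h, and ato, cato and nan were at 0 from 36 h. The 4 tendon cell genes summed to 208 to 220 CPM at L3, 616 to 619 CPM at 6 h, 250 to 290 CPM at 18 h, 355 to 426 CPM at 24 h, 568 to 638 CPM at 36 h and 1516 to 1894 CPM at 44 h. The 6 hemocyte genes summed to 75.3 to 92.1 CPM at L3, 156 to 166 CPM at 6 h, 37.8 to 48.5 CPM at 18 h, 57.6 to 72.3 CPM at 24 h, 76.9 to 85.6 CPM at 36 h and 110 to 115.3 CPM at 44 h. The 5 trachea genes, among them the chitin-binding protein gene Gasp, which the cuticle also uses, summed to 469 to 498 CPM at L3, 8155 to 32740 CPM at 6 h, 243 to 259 CPM at 18 h, 183 to 252 CPM at 24 h, 321 to 391 CPM at 36 h and 8024 to 9052 CPM at 44 h. The hemocyte and trachea sums were higher at 6 h than at L3 and lower at 18 h than at 6 h, as was betaTub97EF. At 36 h, where betaTub97EF had its highest mean, the hemocyte sum was within its L3 range and the trachea sum below its own. The 6 fat body genes summed to 5.98 to 6.06 CPM at L3 and 96.8 to 668 CPM per library at later timepoints. The part of these cell types in the tubulin levels was not tested.

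The isotypes of the germ line were at or near 0. alphaTub67C encodes the maternal alpha-tubulin of the egg and early embryo. It had 0 to 11 counts per library, with 6 and 1 at L3, none in the 6 h libraries, 3 and 7 in the 18 h libraries, 11 and 0 in those of 24 h, 2 and 5 in those of 36 h, and 0 and 1 in those of 44 h. These counts were too low to test, so differences between timepoints were not tested. betaTub85D encodes the beta-tubulin of male germ cells and of the sperm tail. It had 0 counts in every library from L3 to 36 h and 1 count in each library at 44 h, under the floor of 3 counts, which lay between 0.363 and 1.53 CPM per library. The ovary markers summed to at most 6.07 CPM in a library, whereas the testis markers summed to 0.945 to 1.94 CPM at L3, 2.80 to 11.5 CPM per library from 6 to 24 h, 175 to 201 CPM at 36 h and 45.3 to 47.6 CPM at 44 h. Of the 11 testis markers counted, aly, Mst98Cb, Mst84Db and ocn were at 0 in every library, whereas 5 had a count at 36 h. Only 1 of the 11 passed the filter for testing. A further 3 tubulin genes of the genome were counted and none could be tested. They are gammaTub37C, the maternal gamma-tubulin, CG7794 and CG32396, and each had 0 to 4 counts per library.

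gammaTub23C encodes the gamma-tubulin of somatic cells, and it changed in a single consecutive step, as alphaTub84D did. It stood at 61.5 and 64.6 CPM at L3, 74.0 and 65.2 CPM at 6 h, 60.1 and 63.3 CPM at 18 h, 26.7 and 26.0 CPM at 24 h, 34.7 and 25.0 CPM at 36 h, and 32.0 and 32.2 CPM at 44 h APF. Every library up to 18 h was above every library from 24 h on. gammaTub23C fell 2.33-fold from 18 to 24 h (log2 fold change -1.22 ± 0.20, edgeR adjusted p = 0.00246), and the call was kept in every leave-one-out fit (highest adjusted p = 0.0364). None of the other 4 consecutive steps passed, with log2 fold changes between -0.18 and 0.18. At 44 h it was 1.96-fold below L3 (log2 fold change -0.97 ± 0.19, edgeR adjusted p = 0.000938). betaTub56D had a log2 fold change of -0.58 in the same step and did not pass (edgeR adjusted p = 0.109), but it fell with DESeq2 (adjusted p = 0.0143) and without either 6 h library (0.0458 and 0.0482).

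Many partners of gamma-tubulin also fell at 24 h. Of the 14 genes of the gamma-tubulin ring complex and of augmin, a complex that starts new microtubules on existing spindle microtubules, 10 fell and 0 rose from 18 to 24 h, with a median log2 fold change of -1.23 beside 0.01 over all genes tested. Falls made up 7.76% of all tested genes in that step. Augmin genes carried most of the earlier changes, a split of the list made after the values were seen. From L3 to 6 h 7 of the 8 augmin genes fell, from 6 to 18 h 8 of the 8 rose, and from 18 to 24 h and from 24 to 36 h 7 fell each time. Of all tested genes, 22.0% fell at 6 h, 21.7% rose at 18 h and 16.7% fell at 36 h. The augmin gene msd1, for example, fell by 3.70 on the log2 scale from 18 to 24 h (edgeR adjusted p = 0.000715). Over the 6 genes of the ring complex and its recruiting subunit Grip71, 1 rose and 0 fell from L3 to 6 h, 1 rose from 6 to 18 h and 3 fell from 18 to 24 h. Grip163 was the one that rose at 6 h, by 1.02 on the log2 scale (edgeR adjusted p = 0.00783). Of these 6, 2 fell from 24 to 36 h, and 3 rose and 0 fell from 36 to 44 h, where 14.9% of all genes rose. Between L3 and 44 h 1 of them rose and 2 fell, while 8 of the 8 augmin genes fell, beside 30.2% of all genes. The median log2 fold change between L3 and 44 h was -0.37 for the ring complex and -3.62 for augmin. Of 11 centrosome genes, 7 fell from 18 to 24 h, led by the centriole duplication gene ana2 with -2.42 (edgeR adjusted p = 0.00552). The median level of the ring complex and augmin genes, as a percentage of each gene's highest timepoint, was 95.05 percent at L3, 54.5 percent at 6 h, 97.8 percent at 18 h, 40.2 percent at 24 h, 19.7 percent at 36 h and 13.8 percent at 44 h. For gammaTub23C the same values were 90.5, 100, 88.6, 37.8, 42.9 and 46.1%. Of the 14 genes behind the median 8 are augmin, so it does not describe the ring complex alone.

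**Figure D2:**
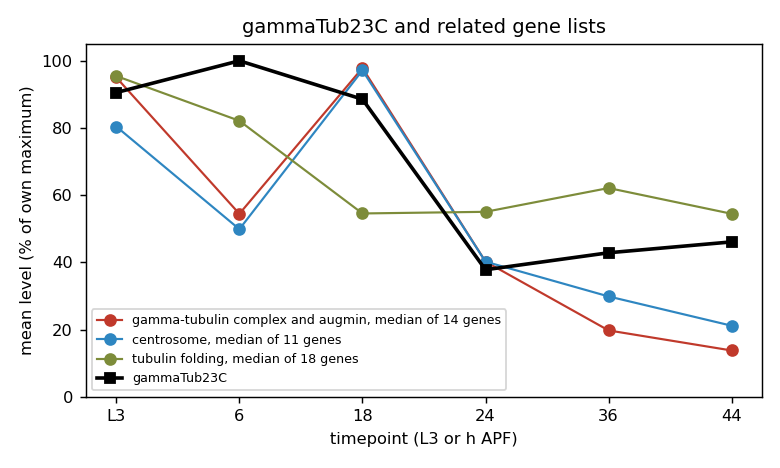
Mean level as a percentage of each gene's highest timepoint mean (y axis) over L3 and hours APF (x axis). The black squares are gammaTub23C, and the coloured circles are medians over 14 genes of the gamma-tubulin ring complex and augmin, 11 centrosome genes and 18 tubulin folding genes. gammaTub23C has its own maximum at 6 h, where the ring complex and augmin median is 54.5% and the centrosome median 49.9%. All 3 drop at 24 h, and 8 of the 14 ring complex and augmin genes are augmin.

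Between consecutive timepoints, most tubulin calls were in 3 of the 5 steps, L3 to 6 h, 6 to 18 h and 24 to 36 h. These were also the steps with the most calls over all genes, at 45.4, 44.6 and 36.0%, beside 12.4 and 27.9% in the others. From L3 to 6 h 3 tubulins rose (alphaTub85E, betaTub60D and betaTub97EF) and 1 fell (alphaTub84D), where 23.4 and 22.0% of all tested genes rose and fell. The 4 of 7 called stood beside 45.4% of all genes, and the 2 past a 2-fold limit beside 32.8%. From 6 to 18 h 0 rose and 4 fell (alphaTub84B, betaTub56D, betaTub60D and betaTub97EF), where 21.7% of all genes rose, 22.8% fell and 44.6% did either. All 4 falls were past 2-fold, beside 32.0% of all genes. With library size alone 1 tubulin rose (alphaTub85E) and 2 fell (betaTub60D and betaTub97EF) in this step. From 18 to 24 h betaTub97EF rose and gammaTub23C fell, in a step where 4.64% of all genes rose, 7.76% fell and 12.4% did either. Both were past 2-fold, beside 8.81% of all genes.

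From 24 to 36 h 5 tubulins rose (alphaTub84B, alphaTub85E, betaTub56D, betaTub60D and betaTub97EF) and 0 fell, where 19.3% of all genes rose, 16.7% fell and 36.0% did either. alphaTub84B, betaTub60D and betaTub97EF were the 3 past 2-fold, beside 25.4% of all genes. These calls depended on the scaling. With library sizes that count unassigned reads, 0 tubulins rose and 1 fell (alphaTub84D), while the median of all genes moved by -0.84. From 36 to 44 h alphaTub85E alone rose, past 2-fold, where 14.9% of all genes rose, 13.0% fell, 27.9% did either and 19.9% changed past 2-fold. Between L3 and 18 h, the stages described as cycling, alphaTub85E rose, and alphaTub84D and betaTub60D fell, beside 13.6% of all genes that rose, 12.2% that fell and 25.9% in either direction. Of these calls, that of alphaTub84D (edgeR adjusted p = 0.0166) was lost without L3 replicate 1 (0.142) or either 18 h library (0.102 and 0.0779), and 1 tubulin was left when 18 h replicate 1 was left out. Between L3 and 44 h 3 rose (alphaTub85E, betaTub60D and betaTub97EF) and 2 fell (alphaTub84D and gammaTub23C), where 32.6% of all genes rose, 30.2% fell and 62.8% did either. With library size alone 2 rose and 3 fell, betaTub56D among the latter. The shares of tubulins called in either direction from L3 to 6 h and from 6 to 18 h, and between L3 and 44 h, were near these backgrounds. From 6 to 18 h, however, all 4 calls were falls past 2-fold, where 22.8% of all genes fell and 32.0% changed past 2-fold. With library size alone 2 of these falls were called, and with unassigned reads 1. From 24 to 36 h 5 of 7 were called beside 36.0%, in calls that also depended on the scaling.

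**Figure D3:**
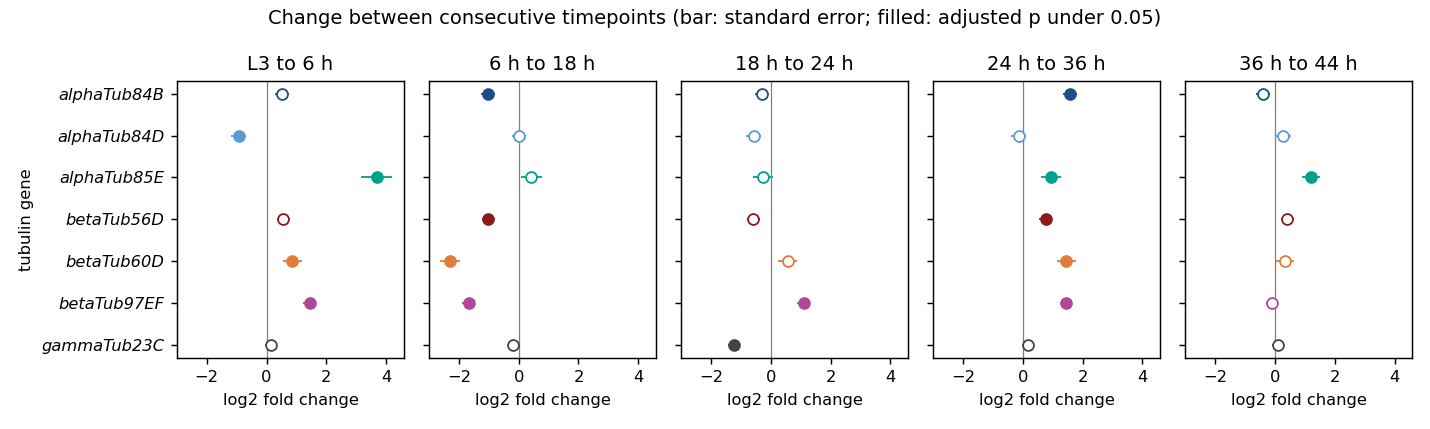
Log2 fold change (x axis) of each tested tubulin gene (y axis) in the 5 steps between consecutive timepoints, with bars for the standard error and filled points for an edgeR adjusted p under 0.05. The 6 to 18 h panel has 4 filled points, all below 0, and the 24 to 36 h panel has 5, all above 0 with TMM scaling (betaTub56D was at -0.083 with unassigned reads in the library size).

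The make-up of the tubulin RNA was compared as shares, which need no library size. Each gene's counts were divided by its exon length, and its share was taken of the summed alpha or beta genes. alphaTub84B held most of the alpha class at every timepoint, with 95.5 ± 0.6% at L3 (SD, n = 2) and 98.9 ± 0.01% at 36 h. alphaTub84D made 4.85 and 4.03 percent of alpha RNA at L3, 1.91 and 1.40 percent at 6 h, 3.27 and 3.43 percent at 18 h, 2.79 and 2.79 percent at 24 h, 0.862 and 0.889 percent at 36 h, and 1.29 and 1.46 percent at 44 h. Its share was thus higher in the L3, 18 and 24 h libraries than in any 6, 36 or 44 h library. The share of alphaTub85E was lowest at L3, with 0.015 and 0.010% in the 2 libraries, and highest at 44 h, with 0.666 and 0.743%. Each of these 3 shares differed among timepoints beyond the replicate spread (exact permutation test over 10395 assignments of the 12 libraries, adjusted over 6 shares, p = 0.000385 for alphaTub84B, 0.000385 for alphaTub84D and 0.00895 for alphaTub85E). Shares within a class are not independent, and those of alphaTub84B and alphaTub84D nearly mirror each other. The uncounted reads also leave the split between alphaTub84B and alphaTub84D uncertain.

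betaTub56D held 96.4 and 96.2% of beta RNA at 18 h, its highest share, and 87.3 and 87.3% at 36 h (exact permutation test, adjusted p = 0.010). At 44 h its share was 90.0 and 86.9%. betaTub60D gave 5.69 and 6.32 percent at L3, 6.18 and 8.52 percent at 6 h, 3.11 and 3.15 percent at 18 h, 7.90 and 4.76 percent at 24 h, 10.1 and 10.1 percent at 36 h, and 8.02 and 11.3 percent at 44 h. This share differed among timepoints with an adjusted p of 0.0299 (exact permutation test), which became 0.0555 to 0.0914 when either library of L3, 18 h or 36 h was left out. The share of betaTub97EF was 0.417 and 0.527 percent at L3, 0.781 and 0.917 percent at 6 h, 1.71 and 1.67 percent at 24 h, 2.62 and 2.62 percent at 36 h, and 2.00 and 1.74 percent at 44 h (exact permutation test, adjusted p = 0.000385). Its share at 18 h, 0.498 and 0.641%, overlapped that of L3. A pair of timepoints with 2 libraries each cannot give an exact p under 0.333, so single pairs were not tested.

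**Figure D4:**
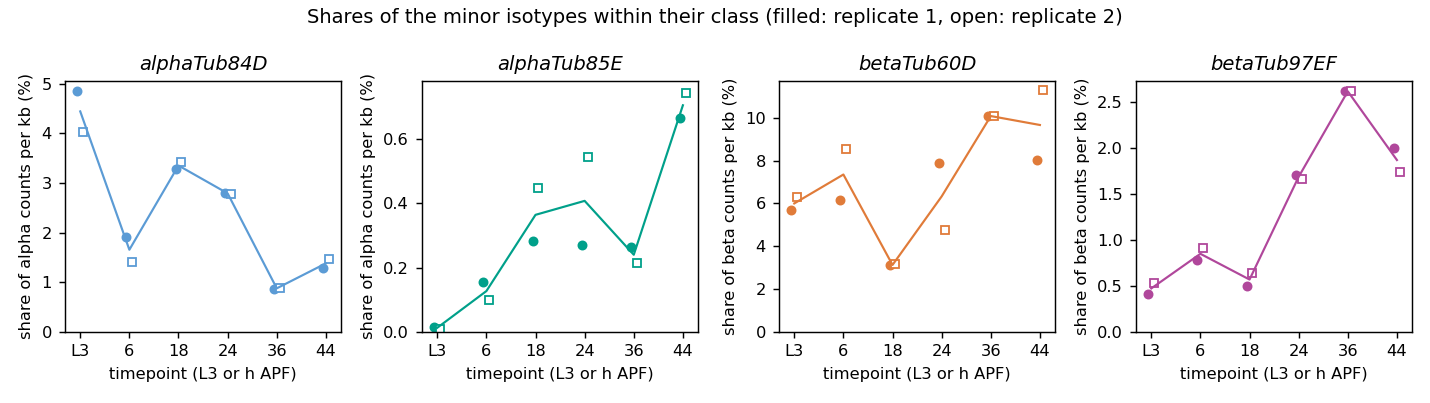
Share of 4 minor isotypes in the summed counts per kilobase of their class (y axis, percent, from 0) by timepoint (x axis, L3 or hours APF). Filled circles are replicate 1, open squares replicate 2 and lines the mean. The alphaTub84D share is 4.85 and 4.03% at L3 and under 1% at 36 h, and the betaTub97EF share reaches 2.62% in both 36 h libraries.

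Per kilobase, the summed alpha genes stood above the summed beta genes in every library, and 36 h stood apart. This ratio was looked at after the data had been seen. It was 1.18 ± 0.01 at L3 (SD, n = 2), 1.10 ± 0.01 in the 6 h wings, 1.17 ± 0.02 at 18 h, 1.33 ± 0.08 in the 24 h wings, 2.19 ± 0.06 at 36 h and 1.29 ± 0.02 in the 44 h wings. The 36 h libraries gave 2.15 and 2.24, above all 10 others. The difference among timepoints was larger than the replicate spread (exact permutation test over 10395 assignments, p = 0.00077, unadjusted). At 36 h alphaTub84B was at 1.71-fold of its L3 level (edgeR adjusted p = 0.0141). betaTub56D was at 0.83-fold of its own, a difference that did not pass (edgeR adjusted p = 0.309). The ratio at 36 h was 1.65-fold that of the next highest timepoint, and 1.58 to 1.70-fold in the leave-one-out runs. An absolute ratio of alpha to beta rests on the exon lengths and on which reads aligned to a single place.

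**Figure D5:**
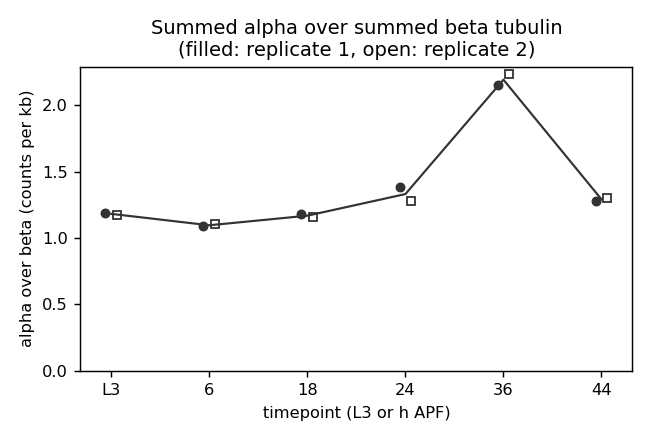
Ratio of the summed alpha to the summed beta tubulin counts per kilobase (y axis, from 0) in each library by timepoint (x axis, L3 or hours APF). Filled circles are replicate 1, open squares replicate 2 and the line the mean. The 36 h libraries sit at 2.15 and 2.24, and the means of the other timepoints lie between 1.10 and 1.33.

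Across the 12 libraries the tubulins did not form a single pattern. The Pearson correlation of log2 CPM was 0.89 between alphaTub84B and betaTub60D, 0.76 between alphaTub84B and betaTub56D, and 0.73 between alphaTub84D and gammaTub23C. It was -0.78 between alphaTub84D and alphaTub85E. These values describe 12 libraries from 6 timepoints that share their scaling, and no p is given. The genes most like the 3 tubulins of widest range were found in the same way. For alphaTub85E they were CG5835 (0.97), CG9896 (0.96), which overlaps twi on the opposite strand, and the cadherin gene Cad88C (0.95). Cad88C, for instance, had 2 counts in all at L3 and stood at 29.1 ± 1.7 CPM at 44 h. For betaTub97EF they were CG34408 (0.98), CG4770 (0.97) and Gef64C (0.97), which stood at 26.3 ± 2.4 CPM at L3, 210 ± 27 CPM at 6 h, 38.4 ± 4.3 CPM at 18 h and 526 ± 34 CPM at 36 h. For betaTub60D they were CG3523 (0.96), the fatty acid synthase gene FASN1, CG7518 (0.95) and CG2277 (0.95). The fatty acid synthase gene stood at 37.5 ± 1.1 CPM at 6 h and 3.37 ± 0.41 CPM at 18 h.

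The genes that fold, cut, bind and walk along microtubules showed other patterns. Newly made tubulin is folded by the chaperonin CCT with prefoldin and the tubulin cofactors. Of 18 such genes, 4 rose and 8 fell from L3 to 6 h, and 0 rose in any later step. Over all genes 23.4% rose and 22.0% fell at 6 h, so the share of rises was near the background. In the later steps 21.7, 4.64, 19.3 and 14.9% of all genes rose. CG8258, the chaperonin subunit CCT8, fell by 1.27 on the log2 scale at 6 h (edgeR adjusted p = 0.000127), and CG31961, the cofactor gene Tbcc, rose by 1.35 (edgeR adjusted p = 0.000126). From 24 to 36 h, when 5 tubulins rose, 0 of the 18 folding genes passed the test, beside 36.0% of all genes. Their median log2 fold change was 0.24 beside -0.04 over all genes. Against L3, 9 of the 18 folding genes had fallen and 1 had risen at 44 h, where 30.2% of all genes fell and 32.6% rose. The chaperonin gene Cctgamma was among those that fell (log2 fold change -1.80, edgeR adjusted p = 3.15e-05).

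Genes of microtubule-associated and plus-end proteins moved both ways, with 6 rises and 6 falls among 18 from 24 to 36 h, beside 19.3 and 16.7% of all genes. CLIP-190, a plus-end binding protein gene, rose by 2.12 on the log2 scale in that step (edgeR adjusted p = 8.91e-06), from 69.4 ± 3.7 to 302 ± 20 CPM. It overlaps Polr2J on the opposite strand. The spindle pole gene asp fell by 3.43 from 18 to 24 h (edgeR adjusted p = 0.00063) and was at 0 counts in both 36 h libraries. Mapmodulin was at 621 ± 139 CPM at L3, 158 ± 29 CPM at 6 h and 645 ± 87 CPM at 18 h, and both of these steps passed (edgeR adjusted p = 4.9e-05 and 3.74e-05). tau, whose protein binds along axonal microtubules, rose from L3 to 6 h (edgeR adjusted p = 3.74e-05) to 17.8 ± 4.6 CPM, fell to 1.76 ± 0.28 CPM at 18 h (edgeR adjusted p = 0.000294), and rose from 6.76 ± 4.57 CPM at 36 h to 224 ± 108 CPM at 44 h (edgeR adjusted p = 7.61e-06). Map205, which encodes a microtubule-binding protein, fell by 1.14 on the log2 scale from 36 to 44 h (edgeR adjusted p = 0.00306).

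Among 20 kinesin genes 6 rose and 7 fell from L3 to 6 h, 6 rose and 1 fell from 6 to 18 h, and 6 fell with 0 rises in each of the next 2 steps. Over all genes 23.4% rose and 22.0% fell in the first of these steps, 21.7 and 22.8% in the second, 4.64 and 7.76% in the third, and 19.3 and 16.7% from 24 to 36 h. The kinetochore kinesin cmet fell by 2.09 on the log2 scale at 6 h (edgeR adjusted p = 2.82e-05) and rose by 2.16 at 18 h (1.91e-05). sub, a kinesin of the meiotic and mitotic spindle midzone, fell by 4.27 from 18 to 24 h (edgeR adjusted p = 4.11e-05). Klp61F, the spindle kinesin that slides microtubules apart, fell from 23.2 ± 3.9 CPM at 24 h to 0.29 ± 0.01 CPM at 36 h (edgeR adjusted p = 5.18e-05). Klp31E, a kinesin gene, rose by 1.76 at 6 h (edgeR adjusted p = 0.0002) and fell by 0.98 at 18 h (0.00658). From 36 to 44 h 5 kinesin genes rose and 1 fell, beside 14.9 and 13.0% of all genes, with a median log2 fold change of 0.64 beside 0.08. The rise of sub in that step (edgeR adjusted p = 0.0365) was from 0 counts to 0.66 ± 0.07 CPM, near the floor, and no fold is given. Kap3, the accessory subunit of kinesin-2, was the gene that fell, by 1.00 on the log2 scale (edgeR adjusted p = 0.00494). Klp67A, a depolymerising kinesin of the spindle, fell by 1.92 at 6 h, rose by 2.51 at 18 h, and fell by 2.45 at 24 h and by 3.58 at 36 h (edgeR adjusted p = 0.000118, 1.52e-05, 0.000177 and 5.3e-05). Of the 6 severing and depolymerising genes tested it was the only one called in all of the first 4 steps. Beside the all-gene shares above, 2 of the 6 rose and 1 fell at 6 h, 1 rose and 2 fell at 18 h, and 1 rose and 1 fell at 24 h. Against Klp67A, kat80 rose by 1.42 at 6 h (edgeR adjusted p = 0.000186) and spas fell by 1.39 at 18 h (0.00449). At 24 h kat-60L1 rose (edgeR adjusted p = 0.0339), from 0.66 ± 0.54 CPM, near the floor, to 4.24 ± 2.39 CPM.

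Of 9 dynein and dynactin genes 0 were called from L3 to 6 h, and between 1 and 3 in each later step, where 45.4% of all genes were called from L3 to 6 h and 44.6, 12.4, 36.0 and 27.9% later. At 36 h Gl, the dynactin subunit that binds microtubules, rose 2.30-fold (edgeR adjusted p = 0.0027). Of the 4 tested genes of enzymes that modify tubulin, 2 rose from 24 to 36 h and none fell, beside 19.3 and 16.7% of all genes. The tubulin deacetylase gene HDAC6 was 1 of them. It rose by 1.61 on the log2 scale at 36 h (edgeR adjusted p = 0.00202), from 30.7 ± 18.2 to 99.0 ± 1.0 CPM, and fell to 18.2 ± 4.0 CPM at 44 h (edgeR adjusted p = 0.000172). It overlaps an antisense RNA, and the strand setting of the counting is not given in the sources used here. Sirt2, a second deacetylase gene, fell by 1.54 at 6 h (edgeR adjusted p = 0.000201) and rose by 1.83 at 18 h (edgeR adjusted p = 5.17e-05). Overlap with another gene in BDGP6 also holds for CG5835, CG7518, CG2277, Cad88C, Gef64C, msd1, ana2, Mapmodulin, tau, cmet, sub, Klp61F, Kap3 and Klp67A, and their levels are uncertain to that extent. The same holds for kat80, spas and kat-60L1.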

How the data were processed

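mRNA libraries were made by the authors with a stranded kit from wings of 6 stages. Per the labels, reads were aligned to dm3 with TopHat2 2.1.0, and SAMtools 1.2, HTSeq 0.6.1 and edgeR were used. The authors deposited raw counts per gene and RPKM values. The 2 columns of the RPKM table that match no sample were not used. Unassigned reads, which made up 44.0 to 75.2% of a library's records, stayed out of the library sizes of the main fit. The deposited RPKM values are scaled to library sizes that include them.

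Counts were analysed with R 4.3.3 and edgeR 4.0.16 (TMM, quasi-likelihood test, 12 libraries in a single model with 6 timepoints). Genes needed a log2 CPM above 2 (prior count 2) in at least 1 library. p-values were adjusted by the Benjamini-Hochberg method over 8469 genes. The gene lengths implied by the deposited RPKM values bore no relation to BDGP6 exon lengths (Spearman correlation 0.01 over 9816 genes, a description), so merged BDGP6 exon lengths were used for shares and for levels per kilobase. BDGP6 coordinates served only for these lengths and for finding overlapping genes, and none is printed. Replicates are independent per the paper's methods, and their counts differed by more than sampling noise (chi-square per degree of freedom 7.25 to 106.5). Same-numbered replicates did not deviate together (2 of 15 timepoint pairs had a correlation above 0.1), so no pairing was used.

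Named are the 9 tubulins, the genes with the largest called rise and fall of a list in a step, and the 3 genes most correlated with each of the 3 tubulins of widest range. For augmin, and for contrasts outside the 5 consecutive ones, L3 to 18 h and L3 to 44 h, the choice was made after the values were seen. Such further contrasts were used for the order of timepoints and for the 36 h levels against L3. The members and lists were chosen with earlier results of these data known. The alternatives were DESeq2 1.42.0, its size factors, other library sizes and filters, limma 3.58.1 on log2(RPKM + 1), the 4 libraries of a step alone, a replicate block, and leaving out each library. Poisson and floor values cover counting error only. The steps were tested on simulated data.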

Additional observations from a re-analysis of the deposited data

How the results depend on the processing

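The scaling changed many calls. TMM centres the genes, and with library size alone the median of all genes moved by -0.57 on the log2 scale from L3 to 6 h, 0.50 from 6 to 18 h, -0.06, -0.38 and -0.33 in the next 3 steps, and -0.86 from L3 to 44 h. With unassigned reads in the library size it moved by -0.42, 0.73, -0.38, -0.84 and 0.33 in the 5 steps. After this shift was subtracted, the tubulin log2 fold changes were at most 0.047 from those with TMM for library size alone and at most 0.154 with unassigned reads. This closeness was built in and is not a test, because either setting only replaces 1 factor per library. Over all genes, library size alone turned 1985 rises and 1863 falls at 6 h into 1271 and 3628, 1842 and 1931 at 18 h into 3370 and 1212, 1638 and 1413 at 36 h into 1185 and 2865, 1266 and 1098 at 44 h into 774 and 1928, and 2760 and 2559 between L3 and 44 h into 1778 and 4614. With unassigned reads the rises numbered 1153, 3005, 102, 718 and 1149 in the 5 steps, beside falls of 2036, 842, 570, 3476 and 472.

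The number of tubulins called was 4, 4, 2, 5 and 1 in the 5 steps. It became 2, 1, 1 and 1 in the first 4 with unassigned reads, and 2, 2, 1 and 0 with limma on the RPKM values, which share those library sizes. Library size alone gave 3 called from 24 to 36 h and 2 from 36 to 44 h, 1 rise and 1 fall. The 4 libraries of a step alone gave 2 from 6 to 18 h. A 2-fold limit gave 2 at 6 h and 3 at 36 h. Leaving out a library gave 2 to 4 at 6 h, 1 to 3 at 24 h, 3 to 5 at 36 h, 0 to 1 at 44 h, and 1 to 3 between L3 and 18 h. The betaTub60D share spanned 6.96 percentage points, and 6.94 to 8.19 with a library left out.

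Reversals were all in changes without a call under TMM, except 1. That was betaTub56D from 24 to 36 h, at -0.083 with unassigned reads and -0.059 with limma. With library size alone, log2 fold changes were -0.069 (alphaTub84B), -0.025 (betaTub56D) and -0.44 (gammaTub23C) at 6 h, 0.32 (gammaTub23C) at 18 h, -0.21 (gammaTub23C) at 36 h, -0.046 (alphaTub84D) and -0.23 (gammaTub23C) from 36 to 44 h, and -0.48 (alphaTub84B) and -0.72 (betaTub56D, adjusted p = 0.00866) from L3 to 44 h. With unassigned reads and with limma they were -0.30 and -0.28 (gammaTub23C at 6 h), 0.55 and 0.52 (gammaTub23C at 18 h), -0.63 and -0.57 (gammaTub23C at 36 h), and 0.24 and 0.19 (betaTub97EF from 36 to 44 h). alphaTub84D from 6 to 18 h was -0.0036 with DESeq2's size factors and -0.0027 with DESeq2. Ranges with a library left out that crossed 0 were -0.26 to 0.36 (alphaTub84D from 6 to 18 h), -0.58 to 0.050 (alphaTub85E) and -0.096 to 1.00 (betaTub60D) from 18 to 24 h, -0.31 to 0.15 (alphaTub84D) and -0.079 to 0.40 (gammaTub23C) from 24 to 36 h, -0.11 to 0.36 (gammaTub23C from 36 to 44 h), and -0.068 to 0.035 (gammaTub23C from L3 to 18 h). The cause of these changes was not tested.

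A replicate block gave 4, 4, 2, 4 and 1 tubulins in the 5 steps. It changed 1 tubulin call, that of alphaTub85E from 24 to 36 h (adjusted p = 0.0502). The depth limits alphaTub67C, betaTub85D and, at L3, alphaTub85E.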
